A study of Arabidopsis thaliana with 8 samples.

Results

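The 10 genes described here are well-known markers of sugar starvation in Arabidopsis thaliana, measured in young flower buds of a line in which an artificial microRNA against cell wall invertase is expressed. They were taken by gene identifier and make up 10 of the 33977 genes in the deposited table. They are ASN1 (AT3G47340), SEN1 (AT4G35770), DIN10 (AT5G20250), bZIP1 (AT5G49450), BCAT2 (AT1G10070), PRODH1 (AT3G30775), EXL2 (AT5G64260), EXL4 (AT5G09440), DRM1 (AT1G28330) and DRM2 (AT2G33830). The groups were pSTK::amiRNACWIN24 line 4-3, called amiRNACWIN24, and wild type (WT), with 4 biological replicates each and floral buds of stages 8 to 10 pooled. The STK promoter, from a gene of ovule identity, drives the microRNA, so it is meant to act in a small part of the bud, and 1 transgenic line stands for the construct. No treatment was named for either group.

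Plant cells short of sugar switch on the kinase SnRK1, which acts in part through bZIP transcription factors of groups C and S1. Transcripts for breaking down amino acids, cell wall sugars and stored carbon then accumulate, and sugar feeding lowers them again. Darkness induces many of these genes, which gave rise to the name DIN, for dark inducible. Cell wall invertase splits sucrose in the cell wall space, which gives the hexoses that importers take up.

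The markers did not move together between the genotypes. DIN10 and PRODH1 rose in amiRNACWIN24, bZIP1 and SEN1 fell, and the other 6 did not pass the test. Of all 19082 genes tested, 50.4% passed, 29.4% upward and 21.0% downward, so the 2 risers and 2 fallers among 10 markers are near or below the background. With the trend over exon length removed, 1 marker rose and 1 fell, beside 15.1% and 14.2% of all genes. Without WT replicates 1 and 2, 3 rose and 1 fell, beside 24.2% and 20.3%. With array weights 4 rose and 1 fell (34.2% and 25.6% of all genes), and with no filter on low values 2 rose and 1 fell (21.8% and 16.3%). The libraries of the genotypes did not overlap for 3 of the 10 markers, against 45.9% of all genes tested. The median log2 fold change was 0.11 over the 10 markers and 0.07 over all genes tested.

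Expression is given as RPKM, which scales reads by transcript length and by mapped reads. A log2 fold change sets amiRNACWIN24 over WT after 0.5 RPKM was added to each value, so changes of low genes come out too small. The test was limma's, its p-values were adjusted by the Benjamini-Hochberg method across the 19082 genes tested, and the threshold was 0.05. All 10 markers passed the filter of a mean of at least 1 RPKM. Nearly all low RPKM values were a whole number of reads times a step. That step gave back the reads on genes: 22.5 to 26.2 M per amiRNACWIN24 library and 25.5 to 26.7 M per WT library. For 18807 of the 19082 genes tested the values came out as whole reads, and the voom fits used these. A marker rested on 189 to 19528 reads in a library. The invertase gene CWINV4, which the construct is named for, fell to 13.8 ± 1.76 RPKM in amiRNACWIN24, against 26.9 ± 2.61 RPKM in WT (SD, n = 4 each), with no overlap between libraries. CWINV2, also in the construct's name, was below the filter, at 0.0166 to 0.104 RPKM in amiRNACWIN24 and 0.0161 to 2.75 RPKM in WT. The 2.75 RPKM was WT replicate 1 alone, and the other WT libraries were at 0.0161 to 0.0317 RPKM, so no fall of CWINV2 can be read. STK, whose promoter drives the construct, was itself at 0.410 to 0.767 RPKM in amiRNACWIN24 and 8.41 to 11.2 RPKM in WT (log2 fold change -3.23, limma adjusted p = 1.6e-06), and it overlaps AT4G09950 on the opposite strand. Genes of floral organ identity were present in every library, with a summed level of 674 to 739 RPKM in amiRNACWIN24 and 742 to 912 RPKM in WT. In these bulk buds, fewer cells of a type and less RNA per cell cannot be told apart. Fold changes followed transcript length across all genes, with a median of -0.49 in the shortest decile of exon length and 0.61 in the longest. With limma's voom on the recovered reads and trimmed-mean scaling, 4832 genes rose and 5520 fell, against 5611 and 3998 in the main test, and the calls for the 10 markers were the same.

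The stretches of DNA before DIN10 and PRODH1 are shown because these are the markers that rose. Each is the 250 bases before the annotated start, from the RefSeq assembly TAIR10.1. The gene coordinates in the deposited table were those of this build for 32532 of 32548 matched genes. Capitals mark ACGT (the core bound by bZIP factors) or ACTCAT (an element known from proline-responsive promoters), on either strand.

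DIN10, chr5:6833314-6833563, plus strand: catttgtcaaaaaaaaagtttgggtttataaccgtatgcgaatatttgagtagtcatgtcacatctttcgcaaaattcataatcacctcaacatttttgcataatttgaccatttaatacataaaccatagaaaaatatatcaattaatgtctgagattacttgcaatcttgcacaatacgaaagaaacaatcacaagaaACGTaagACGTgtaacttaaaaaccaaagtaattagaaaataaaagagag
PRODH1, chr3:12451557-12451806, minus strand: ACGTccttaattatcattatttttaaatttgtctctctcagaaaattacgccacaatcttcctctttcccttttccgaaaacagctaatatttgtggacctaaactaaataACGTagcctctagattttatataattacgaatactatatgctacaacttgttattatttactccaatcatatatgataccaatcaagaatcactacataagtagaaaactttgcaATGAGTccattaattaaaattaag

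The DIN10 window held ACGT at 2 places, and PRODH1 held ACGT at 2 places and ACTCAT at 1. The full palindrome CACGTG, the G-box, was found for 1 marker, ASN1, and its 30 bases are shown since ASN1 is the classic target gene of this response.

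ASN1, chr3:17441581-17441610, minus strand: ttgtcgtgataaCACGTGtacggctctaaa

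ACGT, which also lies within every CACGTG, was found before 5 of the 9 markers searched and before 44.1% of 27443 promoters of the same length. ACTCAT was found for 2 of 9 and 12.3%, TATCCA, an element known from sugar-starved rice cells, for 2 of 9 and 13.6%, CACGTG for 1 of 9 and 6.49%, and AAATATCT, the evening element of clock-controlled genes, for 0 of 9 and 4.79%. A match is a run of letters, not a shown binding site.

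bZIP1 encodes a group S1 transcription factor of the low-energy response. The single-exon gene lies on chromosome 5, 20051829 to 20052735. It stood at 10.8, 9.02, 12.3 and 7.89 RPKM in amiRNACWIN24 replicates 1 to 4, against 20.7, 21.7, 17.1 and 15.0 RPKM in WT replicates 1 to 4. Every amiRNACWIN24 library was below every WT library. The log2 fold change was -0.87 (SE 0.15, 95% interval -1.20 to -0.54, limma adjusted p = 0.0010), and the exact two-sided permutation p was 0.029, the smallest that 70 arrangements allow. bZIP1 passed in all 22 alternatives, although its fall was -0.45 (limma adjusted p = 0.031) with the length trend removed. The gene is in the shortest decile of exon length, whose median was -0.49.

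Group C and S1 partners of bZIP1 were mostly without a call: bZIP53 rose, 2 fell, and 5 of the 8 tested had no call. Of all genes tested, 29.4% rose and 21.0% fell. bZIP9, a group C factor, fell to 42.3 ± 2.39 RPKM in amiRNACWIN24, against 65.8 ± 4.75 RPKM in WT (log2 fold change -0.63, limma adjusted p = 0.00022). With the length trend removed bZIP9 was at -0.28 (limma adjusted p = 0.031). bZIP63, a group C factor that SnRK1 phosphorylates, had a log2 fold change of -0.36 and lost its call with the length trend removed (limma adjusted p = 0.16). bZIP53 had 0.30, and 0.51 (limma adjusted p = 0.0018) with the length trend removed. Its call was lost in voom with trimmed-mean scaling (limma adjusted p = 0.080) and without amiRNACWIN24 replicate 1, 2 or 4 or WT replicate 4.

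PRODH1 encodes mitochondrial proline dehydrogenase, which begins the breakdown of proline. It lies on chromosome 3, 12448636 to 12451556. It stood at 330.1, 208, 339 and 195 RPKM in amiRNACWIN24 replicates 1 to 4, against 169, 119, 131 and 171 RPKM in WT replicates 1 to 4. All amiRNACWIN24 libraries were above all WT libraries, with replicates 1 and 3 far above replicates 2 and 4. Its log2 fold change was 0.83 (SE 0.20, 95% interval 0.39 to 1.28, limma adjusted p = 0.0061, exact permutation p = 0.029). PRODH1 passed in all 22 alternatives, over a range of 0.65 to 1.11.

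The second proline dehydrogenase gene, PRODH2, did the opposite. It was at 1.81 ± 0.634 RPKM in amiRNACWIN24 and 5.67 ± 1.03 RPKM in WT (SD, n = 4 each; log2 fold change -1.44, limma adjusted p = 0.00038). Among 8 other proline genes, 4 rose, 1 fell and 3 missed the threshold, where 29.4% of all genes tested rose and 21.0% fell. P5CS2, which makes proline, had a log2 fold change of 0.53, the transporter PROT2 had 0.34, and P5CDH, the next step of proline breakdown, had 0.26. With the length trend removed 0 of the 8 rose and 1, PRODH2, fell, beside 15.1% and 14.2% of all genes.

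ASN1 encodes a glutamine-dependent asparagine synthetase that stores nitrogen in a carbon-saving form when sugar is short. It lies on chromosome 3, 17437840 to 17441431. It stood at 107, 77.9, 94.5 and 66.8 RPKM in amiRNACWIN24 replicates 1 to 4, against 116, 50.2, 86.0 and 65.0 RPKM in WT replicates 1 to 4. The genotypes overlapped almost fully. ASN1 had a log2 fold change of 0.17 with a 95% interval of -0.35 to 0.69 (limma adjusted p = 0.56), so a change of up to 0.69 cannot be told from none. Its sign turned to -0.16 with the length trend removed and to -0.02 without WT replicate 2.

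BCAT2 encodes a branched-chain aminotransferase, which acts on leucine, isoleucine and valine. It ranged from 8.08 to 11.3 RPKM in amiRNACWIN24 and from 9.20 to 20.0 RPKM in WT, where replicate 1 was highest. The log2 fold change was -0.29 (95% interval -0.77 to 0.18, limma adjusted p = 0.27). BCAT2 shares 161 bp with AT1G10090 on the opposite strand, whose log2 fold change was 0.46 (limma adjusted p = 0.0047), and whether reads were counted by strand is not given in the sources used here, so its value is uncertain. Of 14 other genes of branched-chain amino acid breakdown tested, 1 rose and 1 fell, beside 29.4% and 21.0% of all genes tested. ETFQO had a log2 fold change of 0.32 and ETFB had -0.32, both parts of the electron transfer that serves this pathway. With the length trend removed they were at 0.083 and -0.015 and neither passed. The list then had 0 higher and 3 lower, beside 15.1% and 14.2% of all genes. Median-of-ratios scaling gave 1 higher and 4 lower, beside 5251 and 5247 of all 19082 genes.

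DIN10 encodes a protein of the raffinose synthase family. It lies on chromosome 5, 6833564 to 6836862. It stood at 158, 97.1, 136 and 88.7 RPKM in amiRNACWIN24 replicates 1 to 4, against 80.6, 47.4, 51.4 and 69.5 RPKM in WT replicates 1 to 4. No WT library reached the lowest amiRNACWIN24 library. DIN10 thus had a log2 fold change of 0.94 (SE 0.21, 95% interval 0.47 to 1.40, limma adjusted p = 0.0043, exact permutation p = 0.029). DIN10 passed in 21 of 22 alternatives. With the length trend removed its change was 0.52 (limma adjusted p = 0.080), and genes in its decile of exon length had a median of 0.39.

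Among 7 other genes of raffinose and alpha-galactoside metabolism, 3 rose, 0 fell and 4 missed the threshold. The shares over all genes tested were 29.4% upward and 21.0% downward. SIP2, of the same family as DIN10 and known as an alpha-galactosidase acting on raffinose, rose to 238 ± 30.4 RPKM in amiRNACWIN24, against 90.2 ± 24.0 RPKM in WT (SD, n = 4 each; log2 fold change 1.43, limma adjusted p = 0.00029). AGAL1, an alpha-galactosidase, had 0.32. With the length trend removed, 2 of the 7 rose and 1 fell, beside 15.1% and 14.2% of all genes. SIP2 and AGAL1 kept their calls at 1.08 and 0.31.

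SEN1 is a senescence-associated gene induced in the dark, and it lies on chromosome 4, 16944878 to 16946266. It stood at 23.0, 15.2, 17.2 and 11.2 RPKM in amiRNACWIN24 replicates 1 to 4, against 46.8, 28.0, 22.6 and 19.9 RPKM in WT replicates 1 to 4. Replicate 1 was the highest library in both genotypes, and amiRNACWIN24 replicate 1 lay above WT replicates 3 and 4. The log2 fold change was -0.76 (SE 0.26, 95% interval -1.35 to -0.17, limma adjusted p = 0.034), while the exact permutation p was 0.086. SEN1 is the least stable of the 4 calls, having lost it in 9 of 22 alternatives. Without WT replicate 1 the change was -0.51 (limma adjusted p = 0.062), and without WT replicates 1 and 2 it was -0.38. Leaving out amiRNACWIN24 replicate 2, 3 or 4 or WT replicate 2 gave -0.73, -0.79, -0.59 and -0.76 and also ended the call. Over all alternatives the limma adjusted p ran from 0.0021 to 0.19.

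EXL2 and EXL4 encode EXORDIUM-like proteins of the cell wall space. EXL4 stood at 68.2, 71.1, 83.9 and 52.6 RPKM in amiRNACWIN24 replicates 1 to 4, against 70.3, 70.4, 38.2 and 42.7 RPKM in WT replicates 1 to 4. WT fell into a high pair and a low pair. For EXL4 it was 0.35 (95% interval -0.12 to 0.82, limma adjusted p = 0.20). Without WT replicates 1 and 2 it was 0.74 (limma adjusted p = 0.0039). EXL2 ranged from 106 to 147 RPKM in amiRNACWIN24 and from 100.1 to 134 RPKM in WT, with a log2 fold change of 0.14 (95% interval -0.15 to 0.43). It was 0.37 with quantile normalization (limma adjusted p = 0.053), and 0.31 with array weights, where it passed (limma adjusted p = 0.035). EXL4 passed with array weights as well (0.62, limma adjusted p = 0.0097).

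Among 5 other EXORDIUM family genes, 4 rose, 0 fell and 1 missed the threshold, where 29.4% of all genes tested rose and 21.0% fell. EXO, a growth-promoting gene of the family, rose to 147 ± 33.2 RPKM in amiRNACWIN24, against 50.4 ± 18.2 RPKM in WT (SD, n = 4 each; log2 fold change 1.58, limma adjusted p = 0.00063). EXL5 had 0.93 and EXL3 had 0.65. EXL1 had 1.24 but lost its call in several alternatives, among them the length trend removed (limma adjusted p = 0.054). Whether EXL2 and EXL4 differ from their relatives was not tested.

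DRM1 and DRM2 belong to the dormancy-associated, auxin-repressed family, which is high in resting buds. DRM1 ranged from 103 to 180 RPKM in amiRNACWIN24 and from 81.8 to 164 RPKM in WT. Its log2 fold change was 0.09 (95% interval -0.40 to 0.58). DRM2 ranged from 72.3 to 152 RPKM in amiRNACWIN24 and from 70.9 to 175 RPKM in WT, with a log2 fold change of 0.0050 (95% interval -0.61 to 0.62). Neither has a direction that holds across scalings. The 2 other genes of the family that were tested both fell, and with single libraries left out 1 to 2 fell. AT5G44300 was at 4.59 ± 1.89 RPKM in amiRNACWIN24 and 71.7 ± 34.7 RPKM in WT (SD, n = 4 each, log2 fold change -3.78, limma adjusted p = 4.1e-05). AT1G56220 was at 192 ± 27.6 RPKM in amiRNACWIN24 and 271 ± 50.9 RPKM in WT (log2 fold change -0.49, limma adjusted p = 0.017). The genotypes overlapped for AT1G56220, which was at -0.58 with the length trend removed (limma adjusted p = 0.021). Late pollen markers were lower too: their summed level was 21.7 to 38.6 RPKM in amiRNACWIN24 and 158 to 391 RPKM in WT. Of these markers 4 of 5 fell, beside 21.0% of all genes tested, and none of the 5 was at 0 throughout. Their part in the result was not tested. WT replicates 1 and 2 had the highest sums, 338 and 391 RPKM, and are the pair left out together above.

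**Figure D1:**
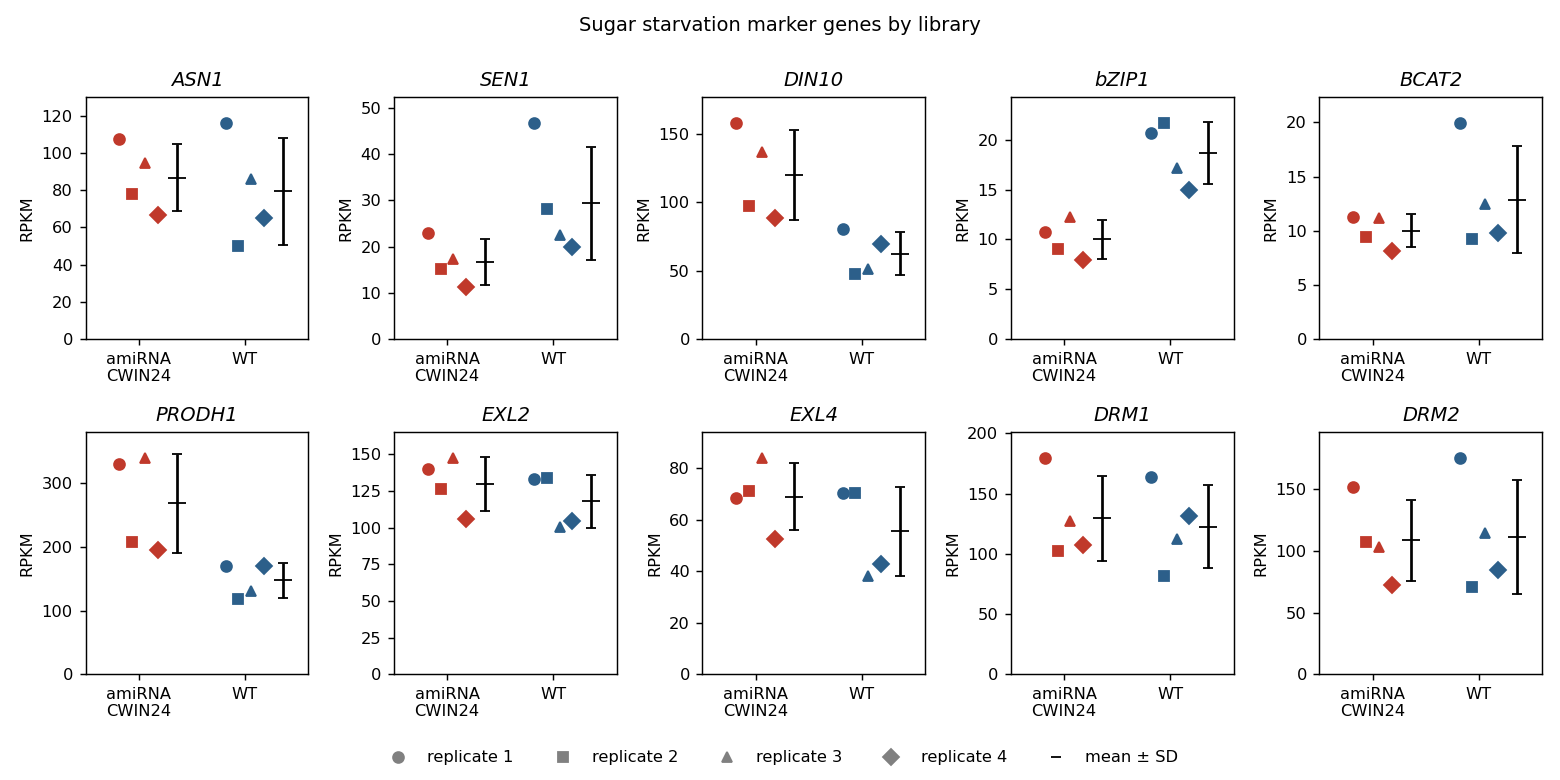
RPKM of the 10 sugar starvation markers in each library, with amiRNACWIN24 left of WT in every panel, 1 symbol per replicate and the mean ± SD beside the points (n = 4 each). DIN10 and PRODH1 lie higher and bZIP1 lower in all amiRNACWIN24 libraries, and the other 7 overlap.

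**Figure D2:**
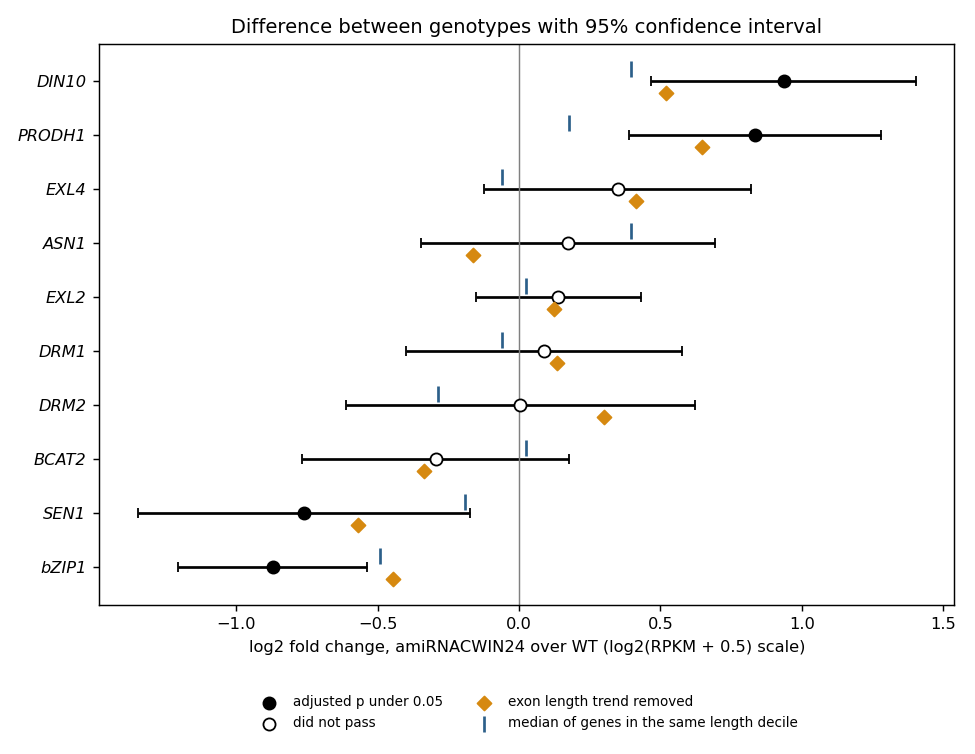
Log2 fold change of each marker, amiRNACWIN24 over WT, with its 95% confidence interval (circles and bars, filled where the limma adjusted p is under 0.05). Diamonds give the change with the exon length trend removed and blue ticks the median of all genes in the same decile of exon length. The intervals of DIN10, PRODH1, SEN1 and bZIP1 lie off 0.

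By level per length, PRODH1 was highest in both genotypes, at 268 ± 77.1 RPKM in amiRNACWIN24 and 147 ± 26.7 RPKM in WT. In amiRNACWIN24 the order went on with EXL2, DRM1, DIN10, DRM2, ASN1, EXL4, SEN1, bZIP1 and BCAT2, and neighbours overlapped in range except PRODH1 with EXL2 and EXL4 with SEN1. In WT the order was PRODH1, DRM1, EXL2, DRM2, ASN1, DIN10, EXL4, SEN1, bZIP1 and BCAT2, with overlap between all neighbours.

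Genes induced by starvation beyond the 10 markers were also split. Among the 16 measured well enough to test, 2 rose, 3 fell and 11 missed the threshold. That is beside 29.4% of all genes tested that rose and 21.0% that fell. MIOX2, which oxidises myo-inositol, rose to 57.5 ± 23.2 RPKM in amiRNACWIN24, against 23.1 ± 3.86 RPKM in WT (SD, n = 4 each; log2 fold change 1.22, limma adjusted p = 0.0028). DIN9 had -0.71, AKINBETA1, a SnRK1 subunit, had -0.53, and TPS10, a trehalose phosphate synthase-like gene, had 0.54, which turned to -0.086 with the length trend removed. Without WT replicates 1 and 2, 5 rose and 2 fell, beside 24.2% and 20.3% of all genes. With single libraries left out, 2 to 6 rose and 2 to 3 fell. Removing the length trend left 1 higher and 2 lower, beside 15.1% and 14.2% of all genes.

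Although they did not change together between genotypes, the markers varied together among replicates. With genotype means removed, the Pearson r over the 8 libraries was above 0 for all 45 pairs of markers, with a median of 0.65 and a range of 0.037 to 0.96. Over all pairs of tested genes the median was 0.18, and 62.1% were above 0. Those pairs were not matched to the markers in spread, which was larger for the markers than for most genes. The closest pairs were ASN1 with DRM2 (0.96), ASN1 with BCAT2, DIN10 with PRODH1, and EXL2 with EXL4 (0.95 each). These are descriptions, since the points share libraries and their depth.

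The shared pattern followed particular libraries. All 10 markers lay above their genotype mean in replicate 1 of amiRNACWIN24 and of WT, 9 in amiRNACWIN24 replicate 3, 2 in amiRNACWIN24 replicate 2 and 0 in amiRNACWIN24 replicate 4. Without WT replicate 1 the median r was 0.54, and without WT replicate 2 it was 0.79. The markers also varied more than most genes: their residual SD on the log2 scale had a median of 0.38, against 0.15 over all genes tested. The genes outside the list most like their mean profile, over 8 libraries, were CRY2 (r = 0.98), SDP1 (0.97), AT3G43230 (0.97), AT1G75220 (0.96) and RABG3B (0.96). They were picked as the highest of all genes tested, so high values follow from the choice. Outside the list, 17 genes had a higher r than SEN1, the closest marker, and 1198 had one higher than EXL4, the least close. In all 19082 genes were tested. Each marker is itself part of the mean profile, which raises its own r. The pattern was thus not particular to the markers.

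**Figure D3:**
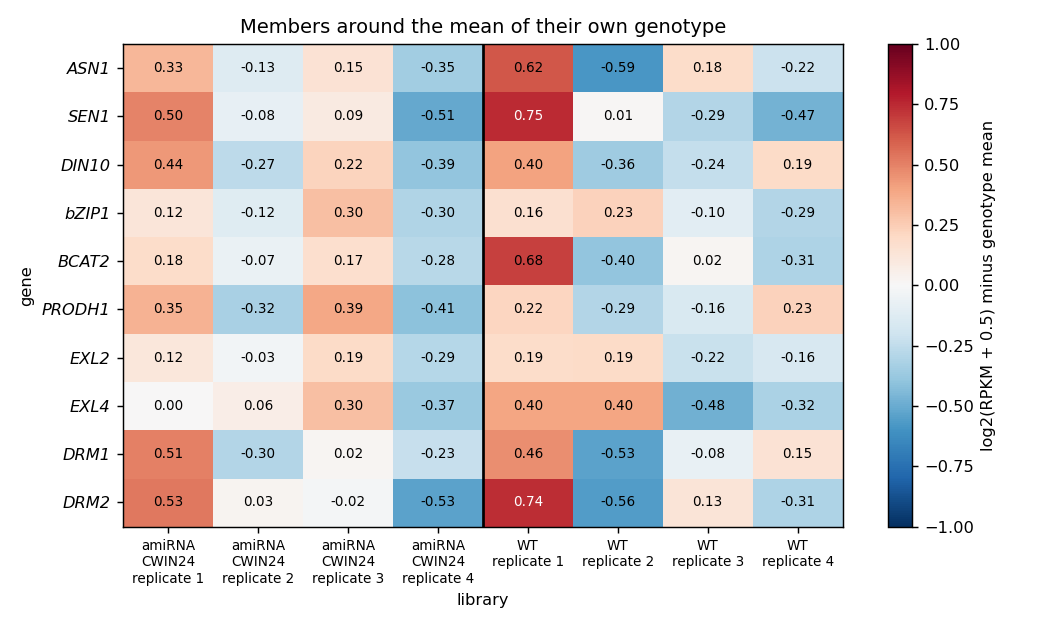
Log2(RPKM + 0.5) of each marker minus the mean of its own genotype, in the 4 amiRNACWIN24 libraries (left) and the 4 WT libraries (right). All 10 markers are above their mean in replicate 1 of each genotype, and all 10 are below it in amiRNACWIN24 replicate 4.

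Other transcript groups moved beside these changes, where 29.4% of all genes tested rose and 21.0% fell. Those shares were 24.2% and 20.3% without WT replicates 1 and 2, and 15.1% and 14.2% with the length trend removed. The tapetum markers, of the nurse tissue of pollen, had a summed level of 233 to 690.5 RPKM in amiRNACWIN24 and 62.6 to 300.1 RPKM in WT, with 4 of 5 higher, 1 not passing and none at 0 throughout. That count was 1 of 5 without WT replicates 1 and 2 and with the length trend removed, and 2 of 5 without amiRNACWIN24 replicate 1 or replicate 4. The 3 green tissue markers summed to 5200 to 6378 RPKM in amiRNACWIN24 and 7369 to 9139 RPKM in WT, and 2 fell. Clock genes of the afternoon and evening rose in 6 of 6 cases, among them PRR5 (log2 fold change 1.71) and GI (1.16). The count was 5 of 6 in several alternatives, among them quantile normalization, WT replicates 1 and 2 left out, and the length trend removed, where GI was at 0.54. Of 4 morning genes 3 fell, LHY among them (-0.82), and PRR7 rose (0.54, and 0.10 without a call with the length trend removed). Sampling time is not given in the labels, and starvation markers are known to follow the day. The part of these groups in the changes of the markers was not tested.

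In the authors' deposited table the log2 fold changes were 0.84 for DIN10, 0.76 for PRODH1, -1.01 for bZIP1 and -0.93 for SEN1. The other markers ran from -0.47 for BCAT2 to 0.23 for EXL4, with DRM1 at -0.031 and DRM2 at -0.14. Across 14392 genes, the authors' values differed from log2 ratios of RPKM means by a median of -0.090. They are thus not on the scale of the changes given above.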

How the data were processed

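Libraries of pooled floral bud RNA were read from both ends for 125 bp, with 30 M reads stated on average, per the labels' protocols. What the authors deposited is 1 RPKM column per library for 33977 genes plus their own comparison, per the file headers. The submitters' processing notes name TAIR10; aligner, counter and strand setting: not given in the sources used here. Genes averaging at least 1 RPKM over the 8 libraries were kept (19082), 0.5 RPKM was added, and log2 values went into limma 3.58.1 (R 4.3.3), with genotype alone in a two-sided eBayes fit with trend, Benjamini-Hochberg adjustment and a threshold of 0.05.

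Of low values, 99.6% to 99.7% per library were whole reads within 0.05 reads. The biological replicates' growth is not described, so p-values set the genotype difference against the spread between these samples only. On simulated data (18807 genes, dispersion 0.02), 88 of 89 changes of 1 on the log2 scale and 35 of 111 of 0.5 were recovered. The markers vary more than most genes, so these shares do not hold for them.

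In all 22 alternatives were run. Voom on the recovered reads used trimmed-mean scaling written out by hand; voom with median-of-ratios scaling was added after the trimmed-mean result had been seen. The markers, lists and tests were chosen with earlier results of these data known. Genes named were the 10 markers, the construct check, at most 4 genes per list by smallest p, and the 5 most like the markers' profile. Protein sequences were not analysed here. The promoter of 1 marker is not reported here. Plots used matplotlib 3.10.9, other values Python 3.11.15.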

Additional observations from a re-analysis of the deposited data

Results flagged for a closer look

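In 4 of 108 groups of 4 libraries, 1 library stood apart from the other 3 by Dixon's criterion, where chance at 1 in 20 gives 5.4. None of the 10 starvation markers was among them. EXL5 was lowest in amiRNACWIN24 replicate 1, at 42.7 RPKM. GLN1;4, a glutamine synthetase gene, was highest in amiRNACWIN24 replicate 3, at 7.76 RPKM. EXL3 was lowest in WT replicate 1, at 108 RPKM. D2HGDH, of lysine and branched-chain amino acid breakdown, was highest in WT replicate 1, at 12.2 RPKM.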

How the results depend on the processing

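The calls for bZIP1 and PRODH1 held in all 22 alternatives and that for DIN10 in 21. The count of markers that fell was 1 in place of 2 with no filter, with array weights, without WT replicates 1 and 2 and with the length trend removed, and 1 to 2 with single libraries left out, since SEN1 lost its call. The count that rose was 4 with array weights and 1 with the length trend removed. Over all genes, 2877 rose with the length trend removed, and 2121 rose and 1664 fell with a minimum of 1.5-fold. Voom with trimmed-mean scaling gave 4832 higher and 5520 lower, so 46.7% of calls were higher, against 58.4% in the main test; voom with median-of-ratios scaling, added after seeing that result, gave 50.2%. Signs turned for values near 0: DRM2 was -0.055 with median-of-ratios scaling, -0.090 and -0.062 in the voom fits, and -0.18 to 0.25 with single libraries left out; DRM1 was -0.0062 in voom with trimmed-mean scaling and -0.089 to 0.24 with single libraries left out; ASN1 was -0.16 with the length trend removed and -0.023 to 0.38 with single libraries left out. TPS10 was -0.086 and P5CDH -0.036 with the length trend removed. The median r among markers was 0.54 to 0.79 with single libraries left out. The cause of these shifts was not tested. Same-numbered libraries had correlations of -0.27, 0.14, -0.32 and 0.53, so the numbers were not taken to pair samples. The replicate block gave 5581 higher and 3590 lower genes, with 2 markers higher and 2 lower. Intervals and floors cover counting error and the spread of 4 libraries only.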

Other observations

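Of 5 genes known to be induced by sugar, 4 rose in amiRNACWIN24, with 0 lower and 1 without a call, beside 29.4% of all genes tested that rose. GPT2, a plastid glucose phosphate carrier, was at 5.53 ± 1.56 RPKM in amiRNACWIN24 and 1.54 ± 0.936 RPKM in WT (log2 fold change 1.65, limma adjusted p = 0.0022). BAM5, a beta-amylase, was at 156 ± 31.1 RPKM in amiRNACWIN24 and 58.8 ± 16.5 RPKM in WT (log2 fold change 1.41, limma adjusted p = 0.00038; SD, n = 4 each). With the length trend removed, 2 of the 5 rose, beside 15.1% of all genes, and the median log2 fold change of the 5 was 0.14 in place of 0.61.

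Among 12 other enzymes of asparagine, glutamine and glutamate, 1 rose, 4 fell and 7 had no call. Of all genes tested, 29.4% rose and 21.0% fell. The glutamine synthetase genes split: GLN1;1 was at 97.6 ± 21.2 RPKM in amiRNACWIN24 and 56.6 ± 7.83 RPKM in WT (log2 fold change 0.77, limma adjusted p = 0.0019), while GLN1;4 was at 6.37 ± 0.933 RPKM in amiRNACWIN24 and 14.9 ± 3.26 RPKM in WT (log2 fold change -1.15, limma adjusted p = 0.00032). GDH3, a glutamate dehydrogenase gene, was at 12.9 ± 3.38 RPKM in amiRNACWIN24 and 29.0 ± 3.01 RPKM in WT (log2 fold change -1.17, limma adjusted p = 0.00045; SD, n = 4 each).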
